A study of Mus musculus with 11 samples.

Results

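Genes of brain mural cells, the cells that wrap blood vessels, are described here in nuclei from mouse brain. The 9 genes were chosen by name: 6 mark pericytes (Pdgfrb, Vtn, Rgs5, Atp13a5, Notch3 and Higd1b) and 3 belong to the contractile apparatus of smooth muscle (Acta2, Myh11 and Tagln). All 9 are among the 25938 gene symbols of the deposited matrix, which counts unique molecular identifiers (UMIs, 1 per captured RNA molecule) in 110304 nuclei. Each of the 11 libraries came from 1 mouse. All mice, controls included, carried a homozygous knock-in of the transferrin receptor (TfR) of humans, per their labels. They received 4 weekly intravenous doses, and brains were collected at 72 h after the last of these. The molecule OTV:Malat1 at 60 mg/kg carries an antisense oligonucleotide (ASO) against the nuclear RNA Malat1 on a TfR-binding molecule (replicates 1, 4 and 5). The conjugate nonTV:Malat1 at 60 mg/kg lacks TfR binding (replicates 1, 4 and 5), Malat1 ASO at 2.5 mg/kg is the free oligonucleotide (replicates 1 and 5), and the control ATV:BACE1 at 57 mg/kg binds TfR and carries no ASO (replicates 1, 4 and 5). Replicate 1 was female and 2.33 months old, replicate 4 male and 2.57 months, and replicate 5 male and 2.33 months. Each replicate number is also 1 deposited batch, so sex and age cannot be told apart from batch. The labels name a posterior brain region, whereas cortex and the strain C57BL/6J stand in the deposited metadata. Library totals ranged from 33235994 to 43972886 UMIs, and 1495 barcode sequences (1.37% of the distinct ones) occurred in 2 or more libraries.

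Pericytes sit on capillaries inside the basement membrane, and smooth muscle cells ring arterioles and carry the actin and myosin that set vessel width. Endothelial cells release the growth factor PDGF-B, and its receptor, the product of Pdgfrb, recruits pericytes and keeps them on the vessel. In textbooks Acta2, Myh11 and Tagln are low in capillary pericytes of the brain, and the potassium channel genes Abcc9 and Kcnj8 are high there.

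The members lie on separate chromosomes except for 2 pairs, in the GENCODE M21 annotation of GRCm38. Pdgfrb is on chromosome 18. Vtn is on chromosome 11 (78499091 to 78502324), as is Higd1b (102835849 to 102838040), and Rgs5 is on chromosome 1 (169655501 to 169695813). Atp13a5 is on chromosome 16 (29231851 to 29378732), as is Myh11 (14194535 to 14291372). Notch3 is on chromosome 17 (32120820 to 32166852), Acta2 on chromosome 19 (34241090 to 34255590) and Tagln on chromosome 9 (45929619 to 45936058). Tagln overlaps Pcsk7 and Gm48529 on the opposite strand, Notch3 overlaps Gm17276 on the opposite strand, and Atp13a5 overlaps Gm15752 on its own strand. Reads of these 3 members could be shared with those genes, since the counting mode is not given in the sources used here.

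A class name for each nucleus was deposited by the authors as a prediction made from expression, with a score from 0 to 1. Of 10 classes, 4 matter here. Pericytes held 930 nuclei with a median of 1930.5 UMIs and a median score of 0.934. The class named Vascular smooth muscle held 330 nuclei, which were shallower (821 UMIs) and predicted with less certainty (0.545), and 28.8% of them scored under 0.5. Vascular endothelium held 1106 nuclei (960.5 UMIs) and Leptomeningeal cells 1861 (1188 UMIs). Doublet calls by the authors covered 5.05%, 2.12%, 1.72% and 4.41% of these classes, in that order, and 10.4% of all nuclei. Called doublets were kept. Since the names come from the same expression values, differences between classes are given below without tests. Levels are UMIs of a gene per 1000000 UMIs of a class (CPM), averaged over libraries with at least 20 nuclei of that class. This left 8 libraries for Vascular smooth muscle and 11 for each of the other 3, and levels are compared within a gene only.

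Pdgfrb, the PDGF-B receptor, had its highest level in nuclei named Vascular smooth muscle, at 1015 ± 126 CPM (SD, n = 8), ahead of Pericytes at 566 ± 75.0 CPM (SD, n = 11). The smooth muscle class was the higher one in 8 of 8 libraries, and the ratio of means was 1.81. Leptomeningeal cells followed at 141 ± 35.6 CPM, Astrocytes at 93.6 ± 15.9 CPM and Vascular endothelium at 53.0 ± 40.6 CPM (SD, n = 11 each). From the third of these classes to the fifth, the ranges of mean ± SD of neighbours overlapped.

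Atp13a5, a P-type transport ATPase gene used as a marker of brain pericytes, had the same first 3 classes in the same order, with a wider gap. It stood at 2870 ± 736 CPM (SD, n = 8) in Vascular smooth muscle and 1066 ± 138 CPM (SD, n = 11) in Pericytes, and was higher in the former in 8 of 8 libraries. Libraries of the smooth muscle class ran from 1584 through a median of 3057 to 3805 CPM. Those of Pericytes ran from 906 through 1042 to 1449 CPM, so the ranges did not overlap. Leptomeningeal cells (161 ± 92.3 CPM) and Vascular endothelium (93.0 ± 85.6 CPM; SD, n = 11 each) had overlapping ranges of mean ± SD, and Astrocytes followed at 65.7 ± 13.1 CPM. Notch3, a receptor of mural cells that is mutated in an inherited small-vessel disease, was also higher in the smooth muscle class in 8 of 8 libraries, at 814 ± 147 CPM against 321 ± 40.7 CPM in Pericytes. Its level in the other 2 vascular classes was near 36.2 CPM (endothelium) and 30.9 CPM (leptomeningeal).

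The order turned around for the other 3 pericyte genes. Vtn, which encodes the adhesive matrix protein vitronectin, reached 2487 ± 332 CPM (SD, n = 11) in Pericytes and 1562 ± 638 CPM (SD, n = 8) in Vascular smooth muscle, where it was the higher one in 1 of 8 libraries, and the ranges of mean ± SD overlapped. Rgs5, a brake on G-protein signalling, had 1674 ± 196 CPM in Pericytes, 1019 ± 145 CPM in Vascular endothelium and 738 ± 237 CPM in Vascular smooth muscle. Leptomeningeal cells had 10.1 ± 7.22 CPM of Rgs5, a level like that of Oligodendrocytes (12.2 ± 5.44 CPM; SD, n = 11 each). Higd1b, a gene of the hypoxia-induced HIG1 domain family, had 180 ± 38.1 CPM in Pericytes and 99.0 ± 68.4 CPM in Vascular smooth muscle, with overlapping spread, and 19.3 ± 16.5 CPM in Vascular endothelium. Rgs5 in the endothelium was thus 60.9% of its level in Pericytes, whereas the other 5 pericyte genes there were between 7.71% and 11.3% of it.

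**Figure D1:**
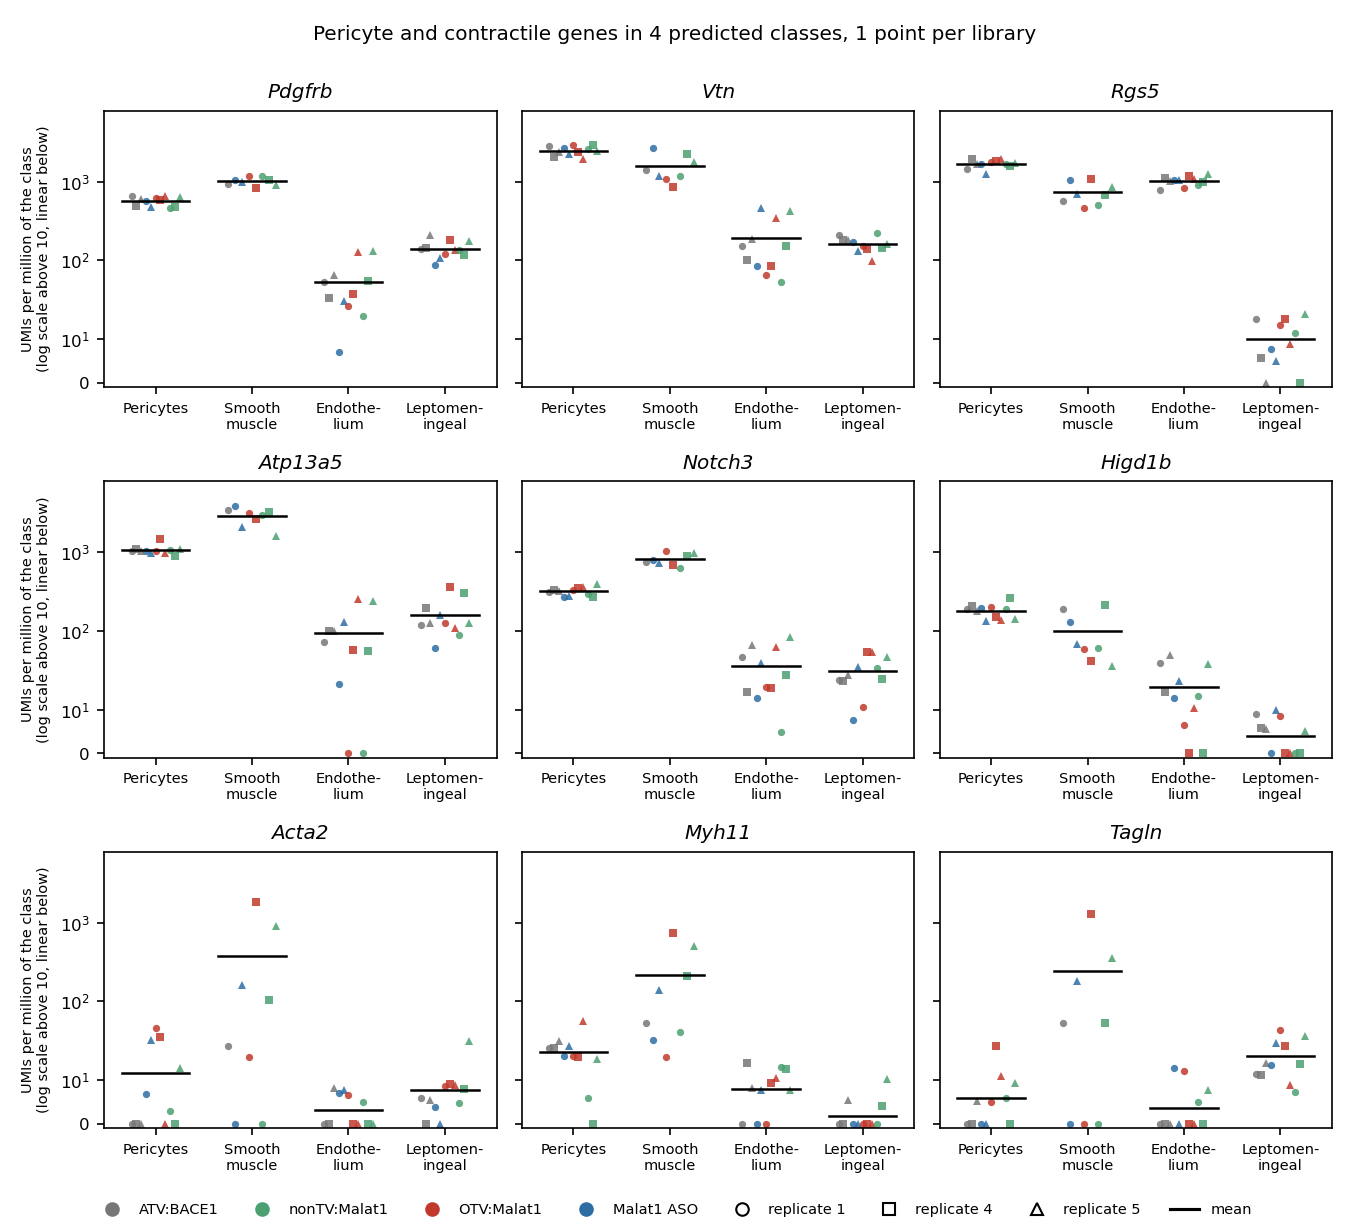
Levels of the 9 genes in the 4 classes, in CPM (log scale above 10, linear below), with 1 point per library that has at least 20 nuclei of the class, coloured by group and shaped by replicate number, and a line at the mean. Atp13a5, Pdgfrb and Notch3 are highest in the smooth muscle class, Vtn, Rgs5 and Higd1b in Pericytes, and Rgs5 alone stays near 1019 CPM in the endothelium.

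Outside the vessel wall the pericyte genes did not share 1 profile. In Astrocytes there were 3.44 UMIs of Pdgfrb for each UMI of Vtn, against 0.223 in Pericytes, and 2.39 UMIs of Atp13a5 per UMI of Vtn against 0.429. After each nucleus was thinned to 500 UMIs, Pdgfrb was detected in 4.54% of Astrocytes and 0.133% of Oligodendrocytes, and Atp13a5 in 2.78% and 0.237%. The shares of Rgs5 were 0.566% and 0.635%, and those of Higd1b 0.212% and 0.251%, so neither of these 2 genes was higher in Astrocytes. Median depths of the unthinned nuclei were 1402 UMIs in Astrocytes and 947 in Oligodendrocytes. Notch3 was detected in 1.07% of thinned Neurons and 2.62% of the class Glia, against 0.140% of Oligodendrocytes. Neurons made up 69.1% of all nuclei and were deeper, with a median of 3926 UMIs. Their Notch3 level was 20.3 ± 3.13 CPM (SD, n = 11), beside a median over libraries of 23.6 CPM for all nuclei. They held 7245 of the 9457 Notch3 UMIs (76.6%), while Pericytes and Vascular smooth muscle held 7.48% and 2.86%. Of Vtn and Rgs5, by contrast, Pericytes held 50.5% and 50.4% of the UMIs. Across libraries, the level over all nuclei ran from 19.9 to 28.7 CPM for Notch3 and from 14.4 to 43.2 CPM for Vtn.

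Endothelial genes were abundant in the class named Pericytes. A list of 14 endothelial markers summed to 16179 ± 1124 CPM there (SD, n = 11), against 20486 ± 1891 CPM in Vascular endothelium, 1809 ± 889 CPM in Vascular smooth muscle (n = 8) and 566 ± 82.5 CPM in Leptomeningeal cells. Cldn5, a tight junction gene of the blood-brain barrier, had 2159 ± 216 CPM in Pericytes and 2428 ± 388 CPM in Vascular endothelium. Flt1, a receptor for VEGF, had 4270 ± 435 CPM and 5579 ± 560 CPM. The class thus carried the defining RNAs of both cell types, and Pericytes is used below only as its deposited name. Of 13 leptomeningeal markers, the transporter gene Slc6a20a alone had 484 ± 116 CPM in Pericytes, and the other 12 summed to 119 ± 32.2 CPM, against 4147 ± 498 CPM in Leptomeningeal cells. Among these, the matrix genes Dcn, Col1a1 and Lum were at 13.3, 1.17 and 0.426 CPM in Pericytes.

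Both kinds of RNA were found in the same nuclei. After thinning to 500 UMIs, 81.5% ± 5.52 (SD, n = 11) of Pericytes had at least 1 UMI of the 6 pericyte genes and at least 1 of the endothelial list. The share was 42.0% ± 8.64 in Vascular endothelium, 29.1% ± 6.26 (n = 8) in Vascular smooth muscle and 4.05% ± 1.52 in Leptomeningeal cells. In classes other than those of the vessel wall and its coverings it was 0.213% of Neurons, 0.293% of Oligodendrocytes, 0.340% of Microglia and 1.05% of Astrocytes, although 10.6% of the thinned Astrocytes held a UMI of the 6 pericyte genes. The share is not given for Glia or Perivascular macrophages. In Glia, not thinned, Mecom of the endothelial list was found in 41.0% of nuclei and Notch3 in 12.8%. Without thinning, the shares were 89.2% in Pericytes, 59.5% in Vascular endothelium, 44.4% in Vascular smooth muscle and 17.3% in Leptomeningeal cells. Without called doublets the thinned share in Pericytes was 81.5% as a mean over libraries and 82.1% pooled (724 of 882 nuclei). In thinned endothelial nuclei Rgs5 was found in 33.6%, Vtn in 8.33%, Atp13a5 in 3.53% and Pdgfrb in 1.90%.

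A stricter split asked for at least 2 different pericyte genes and no endothelial gene, at least 2 endothelial genes and no pericyte gene, or at least 2 of each. By this split 791 of 930 Pericytes (85.1%) held both kinds, 76 (8.17%) held pericyte genes only and 3 held endothelial genes only. In Vascular smooth muscle the order was the other way round: 167 of 330 (50.6%) held pericyte genes only and 51 (15.5%) held both. In Vascular endothelium 446 of 1106 (40.3%) held endothelial genes only, 177 (16%) held both and 0 held pericyte genes only. Its other 483 nuclei (43.7%) met none of these rules, and they held 958 of the class's 1367 Rgs5 UMIs. Depth moved with this split. Nuclei with both kinds had a median of 1961.5 UMIs over the 4 classes, those with pericyte genes only 823 and those with endothelial genes only 862. The part of depth in the split was not tested. Doublet calls covered 5.88%, 3.29% and 1.2% of these 3 kinds.

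**Figure D2:**
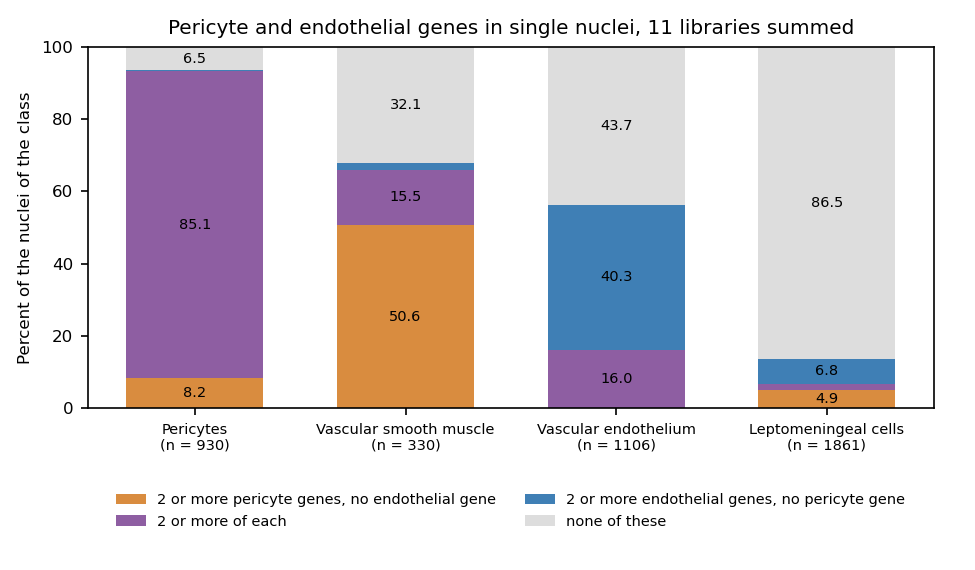
Nuclei of each of the 4 classes, in percent of the class and summed over 11 libraries, split by whether they hold at least 2 pericyte genes, at least 2 endothelial genes, both, or meet none of these rules. Pericytes are mostly nuclei with both kinds (85.1%), and nuclei with pericyte genes alone are most frequent in the class named Vascular smooth muscle (50.6%).

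Levels within the nuclei that held pericyte genes only were compared between the 2 class names. In those of Pericytes (76 nuclei), Atp13a5 stood at 3100 CPM, Pdgfrb at 1192 CPM, Notch3 at 880 CPM, Vtn at 991 CPM, Rgs5 at 807 CPM and Higd1b at 73.4 CPM. In those of Vascular smooth muscle (167 nuclei) the values were 3671, 1317, 944, 1477, 652 and 113 CPM, higher for each gene but Rgs5. In Pericytes with both kinds of gene (791 nuclei), Atp13a5 (1005 CPM), Pdgfrb (544 CPM) and Notch3 (304 CPM) were lower than in the Pericytes with pericyte genes only. Vtn (2617 CPM), Rgs5 (1713 CPM) and Higd1b (185 CPM) were higher there. These are sums over nuclei chosen by these genes, so they describe the split and do not test it.

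The contractile genes were found in 36 nuclei of the class named Vascular smooth muscle. Of its 330 nuclei, 294 (89.1%) had no UMI of Acta2 (smooth muscle actin), Myh11 (smooth muscle myosin heavy chain) or Tagln (transgelin, an actin-binding protein). Another 18 nuclei had 1 of the 3 genes and 18 (5.45%) had 2 or 3. The last 18 held 160 Acta2 UMIs, 97.6% of those in the class, together with 97.0% of Tagln UMIs and 81.0% of Myh11 UMIs. High shares of these 3 genes follow in part from the choice of the nuclei by them. The share of all UMIs of the class that these nuclei held is not given here. The 18 nuclei held 5 UMIs of Atp13a5, or 0.490% of those in the class. The other pericyte genes in these nuclei are not given here. Of the class's 164 Acta2 UMIs, 106 were in its 51 nuclei with at least 2 pericyte and at least 2 endothelial genes. Acta2 thus did occur beside pericyte genes other than Atp13a5, in nuclei that also held endothelial genes. The 167 nuclei of the class with pericyte genes only held 2 Acta2 UMIs, and its 106 nuclei that met none of the rules held 56. Of the 11 UMIs that the class held of Myocd, a co-activator of smooth muscle genes, 10 were in these 18 nuclei (Neurons held 1349), and the smooth muscle markers Ntf3, Cnn1 and Actg2 had 5, 4 and 2 UMIs there and none elsewhere in the class. Of the class's 48 UMIs of Tpm2, a tropomyosin, 93.8% were in these nuclei, while the class held 6.96% of all Tpm2 UMIs. Abcc9 and Kcnj8, the capillary pericyte channel genes, had 0 UMIs there, which allows up to 55.5 CPM each (3 counts; counting error only). The smooth muscle markers named here are part of a list of 13, which did not as a whole follow the contractile genes. Mylk led that list in the class, at 348 ± 167 CPM (SD, n = 8). In Pericytes with pericyte genes only, Mylk stood at 165 CPM and Myl9 at 147 CPM, beside 0 UMIs of Acta2 and Tagln.

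The 294 nuclei without contractile UMIs had 3495 CPM of Atp13a5, 950 CPM of Abcc9 and 208 CPM of Kcnj8. Their median score for the class name was 0.540, and that of the 18 contractile nuclei was 0.891. Depth differed too, with medians of 795.5 and 2066 UMIs. Endothelial UMIs were present in 44.9% of the former and 66.7% of the latter. The 18 nuclei were chosen by the contractile genes and are the deeper ones, so their levels describe the split and do not test the class name. Markers of other cell types were present in the class as well: 13 leptomeningeal fibroblast markers summed to 1647 ± 351 CPM, of which Slc6a20a gave 77.0%, 5 choroid plexus markers to 1967 ± 537 CPM, of which Ttr gave 97.1%, and 6 oligodendrocyte markers to 1455 ± 524 CPM (SD, n = 8). Their part in these levels was not tested. Over all 10 classes 46 nuclei had 2 or more contractile genes, of which 12 were named Neurons, 7 Pericytes, 6 Glia, 2 Astrocytes and 1 Leptomeningeal cells.

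As averages over libraries, Acta2 reached 382 ± 662 CPM in Vascular smooth muscle (SD, n = 8) and 12.4 ± 17.0 CPM in Pericytes (n = 11). Myh11 reached 218 ± 267 and 22.8 ± 14.5 CPM, and Tagln 244 ± 446 and 5.83 ± 8.22 CPM. The smooth muscle class was the higher one in 5, 7 and 5 of 8 libraries. The SD in the smooth muscle class exceeded the mean for each of the 3 genes. Without OTV:Malat1 replicate 4, the means there were 173 ± 326 CPM for Acta2, 143 ± 174 for Myh11 and 92.8 ± 135 for Tagln (SD, n = 7), and leaving out any other of the 8 libraries moved no mean by over 1.5 times. The 3 libraries with under 20 such nuclei, replicates 4 and 5 of ATV:BACE1 and replicate 5 of OTV:Malat1, had 1137, 525 and 527 CPM of Acta2. With them included, the means over 11 libraries were 477 ± 599, 257 ± 258 and 255 ± 393 CPM. Tagln in Leptomeningeal cells was at 20.3 ± 11.8 CPM (n = 11), above Pericytes in 9 of 11 libraries.

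The contractile nuclei were spread unevenly over the replicate numbers. In the 4 libraries with replicate number 1, 0 of 164 nuclei named Vascular smooth muscle had 2 or more contractile genes, which allows a share of up to 1.83% (3 counts; counting error only). In the other 7 libraries there were 18 of 166 such nuclei, with 1 to 7 in each. OTV:Malat1 replicate 4 had 7, nonTV:Malat1 replicate 5 had 4, and ATV:BACE1 replicate 4 and Malat1 ASO replicate 5 had 2 each. Summed contractile UMIs of the class were 5, 2, 2 and 1 in the replicate 1 libraries of ATV:BACE1, nonTV:Malat1, OTV:Malat1 and Malat1 ASO. They were 49, 7 and 188 in replicate 4 of ATV:BACE1, nonTV:Malat1 and OTV:Malat1, and 19, 49, 6 and 21 in replicate 5 of those 3 groups and Malat1 ASO. Every replicate 1 library was thus below every other library, in treated and control groups alike. Replicate 1 differs from the others in batch and sex at once, and these cannot be told apart. Over all 4 vascular and leptomeningeal classes, the replicate 1 libraries of OTV:Malat1 and Malat1 ASO had 3 and 1 such nuclei, all of them outside Vascular smooth muscle.

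**Figure D3:**
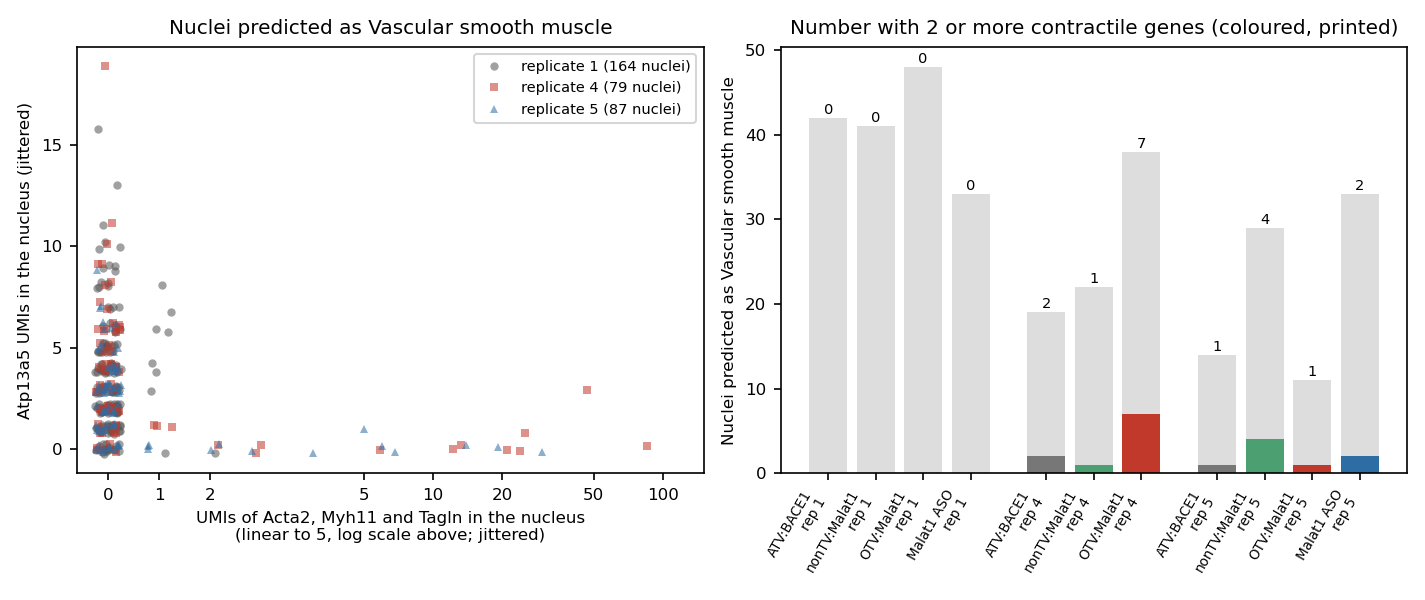
Left, each of the 330 nuclei named Vascular smooth muscle by its summed UMIs of Acta2, Myh11 and Tagln (linear to 5, log scale above) and its Atp13a5 UMIs, with jitter and shaped by replicate number. Right, the number of these nuclei per library (grey) and those with 2 or more contractile genes (coloured, number printed), which are 0 in the 4 libraries of replicate 1 and 1 to 7 in the others.

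The promoter of Atp13a5 is shown because, of the 6 pericyte genes, this one had the highest ratio of Vascular smooth muscle to Pericytes. It was found in 16.7% of the 18 contractile nuclei and in 88.4% of the 294 without contractile UMIs. The sequence is the 250 bases before the start site in the RefSeq promoter table for GRCm38.p6, which matched 5 of the 9 members (Vtn, Rgs5, Atp13a5, Notch3 and Acta2). It lies on the minus strand at chr16:29378733-29378982 and reads 5′ to 3′ toward the gene. Capitals mark CATTCC, searched on both strands, the core of sites bound by TEAD factors.
Atp13a5: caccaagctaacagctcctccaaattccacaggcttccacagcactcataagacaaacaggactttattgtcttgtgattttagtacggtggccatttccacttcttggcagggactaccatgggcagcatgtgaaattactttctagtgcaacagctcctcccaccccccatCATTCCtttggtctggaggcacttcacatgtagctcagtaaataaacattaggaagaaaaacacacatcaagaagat
The motif lies at bases -77 to -72 from the start site. The windows of Rgs5 and Notch3, the other 2 that lie outside the annotated gene, held 0 matches, and Notch3 had nearly the same ratio of the 2 classes (2.59 against 2.67). Of 32536 RefSeq promoter windows of this length, 12.6% held CATTCC at least once. The match describes letters in the window only.

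Genes whose levels ran most like each member were taken over 97 points (class by library) among 16736 genes with at least 500 UMIs, on the log2(CPM + 10) scale. The points share libraries and classes, so the correlations are descriptions across mixed cell types. Pdgfrb and Atp13a5 were each other's nearest gene (r = 0.965), followed for both by Ednra, the endothelin A receptor (r = 0.929 and 0.933). Notch3 ran most closely with S1pr3, a sphingosine phosphate receptor (r = 0.955), and Ano1, a chloride channel (r = 0.943). Higd1b ran with Cox4i2 (r = 0.906), a subunit of cytochrome c oxidase, and Abcc9 (r = 0.905), and Vtn with Myl9 (r = 0.931), a myosin light chain. The nearest genes of Rgs5 were Car4 (r = 0.959), a carbonic anhydrase of capillary endothelium, and Igfbp7 (r = 0.958). Acta2 and Tagln were each other's nearest (r = 0.832), then Tpm2 and Pde3a for Acta2 (r = 0.684 and 0.635) and Crispld2 and Tpm2 for Tagln (r = 0.702 and 0.686). Myh11 has 426 UMIs in all, under the limit of 500, and was not ranked.

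Partners of these receptors were read in the same classes. Pdgfb, the ligand of Pdgfrb, had 265 ± 53.2 CPM in Vascular endothelium, 230 ± 54.8 CPM in Pericytes (SD, n = 11 each) and 30.3 ± 36.9 CPM in Vascular smooth muscle (n = 8), where its receptor was highest. The first 2 of these overlapped in mean ± SD. Pdgfra, the receptor of fibroblasts and oligodendrocyte precursors, was at 212 ± 48.7 CPM in Leptomeningeal cells and 6.23 ± 7.50 CPM in Pericytes. Of the Notch targets, Heyl had 116 ± 86.5 CPM and Hey2 92.2 ± 38.9 CPM in Vascular smooth muscle, against 56.7 ± 16.7 and 28.8 ± 10.3 CPM in Pericytes, with overlap in mean ± SD for Heyl and none for Hey2. The targets Hes1 (54.4 ± 55.9 against 124 ± 43.5 CPM), Hey1 (12.7 ± 28.4 against 23.1 ± 11.96 CPM) and Nrarp (22.9 ± 26.1 against 17.8 ± 11.3 CPM) overlapped between these 2 classes. The endothelial receptor gene Notch4 was at 67.7 ± 19.6 CPM in Pericytes, 63.0 ± 14.2 CPM in Vascular endothelium, which overlapped, and 2.43 ± 6.87 CPM in Vascular smooth muscle. A further list of 12 pericyte markers, including Abcc9, Kcnj8 and Cspg4, summed to 2683 ± 487 CPM in Vascular smooth muscle, 1806 ± 164 CPM in Pericytes and 270 ± 119 CPM in Vascular endothelium.

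Whether dosing changed the 9 genes was tested with edgeR's quasi-likelihood test on UMIs summed per library, with Benjamini-Hochberg adjustment over all genes of a fit at 0.05. Fits were made for all nuclei and for the 4 classes. All 9 members passed the filter on low counts in all nuclei, 6 in Pericytes, 8 in Vascular smooth muscle and 4 each in Vascular endothelium and Leptomeningeal cells. Vascular smooth muscle could not be set against ATV:BACE1, where 1 library reached 20 such nuclei. Over 5 comparisons and 131 member tests, 0 passed, and 4 of 195976 tests over all genes did (0.00204%), 3 of them Malat1. At an unadjusted p under 0.05, 6 of the 131 stood out in edgeR, 12 with the replicate number as a block and 1 in DESeq2, each with 0 calls. Over all genes 2.06%, 5.01% and 0.882% of the tests in these 3 fits had such a p. By comparison, member calls were 0 of 23 for OTV:Malat1 against ATV:BACE1 (0.00518% of all tests called, 0.045% within Vascular endothelium), 0 of 23 each for nonTV:Malat1 and Malat1 ASO against ATV:BACE1 (0% called in both), and 0 of 31 for OTV:Malat1 set against each of nonTV:Malat1 and Malat1 ASO (0.00249% called in both, 0.0225% within Vascular endothelium in both).

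In Pericytes the 6 members differed between OTV:Malat1 and ATV:BACE1 by -0.24 to 0.11 on the log2 scale. In replicates 1, 4 and 5, Pdgfrb stood at 651, 495 and 594 CPM with ATV:BACE1 and at 613, 578 and 657 CPM with OTV:Malat1, a log2 difference of 0.03 (SE 0.199, edgeR adjusted p = 1.00). The 2 groups overlapped. Atp13a5 stood at 1042, 1102 and 1038 CPM against 1048, 1449 and 986 CPM, a log2 difference of 0.11 (SE 0.183), also with overlap. Vtn stood at 2816, 2042 and 2402 CPM against 2942, 2358 and 1949 CPM, a log2 difference of -0.04 (SE 0.181). Approximate 95% intervals from the SE were -0.36 to 0.42 for Pdgfrb, -0.25 to 0.47 for Atp13a5 and -0.39 to 0.32 for Vtn. Rgs5 (0.10), Notch3 (0.09) and Higd1b (-0.24) also lay within their errors, and the median over the 6 members was 0.06 beside 0.01 over all 6189 genes tested.

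The 6 tests with an unadjusted p under 0.05 were in Vascular smooth muscle (4) and Leptomeningeal cells (2). The largest was Acta2 in Vascular smooth muscle, 3.31 higher on the log2 scale in OTV:Malat1 than in Malat1 ASO (SE 1.36, edgeR adjusted p = 0.999). It rests on OTV:Malat1 replicate 4, at 1841 CPM, since replicate 1 was at 19.4 CPM, and Malat1 ASO replicates 1 and 5 were at 0 and 160 CPM. The only replicate number that both groups have in this class, number 1, gave 19.4 against 0 CPM, and OTV:Malat1 replicate 5 with 11 such nuclei was not in the fit. Without OTV:Malat1 replicate 1, the group was left with replicate 4 alone, assumed to vary like the other groups. The log2 differences against Malat1 ASO were then 4.29 for Acta2, 3.61 for Tagln and 2.97 for Myh11. Against nonTV:Malat1, Tagln was then at 3.37. With no filter on low counts, Acta2 alone of the members passed against Malat1 ASO (log2 3.37, edgeR adjusted p = 0.00554). The share of all genes called in that fit is not given here. OTV:Malat1 replicate 4 held 7 of the 18 contractile nuclei of the class, and what part these had in the difference beside the treatment was not tested.

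The 6 pericyte genes in Vascular endothelium are given by replicate number without a test. Vtn ranged from 53.8 to 151 CPM in the 4 libraries of replicate 1, from 84.4 to 151 CPM in the 3 of replicate 4 and from 188 to 462 CPM in the 4 of replicate 5. Atp13a5 ranged from 0 to 72.4, from 55 to 99.9 and from 98.2 to 252 CPM. The replicate 5 libraries were above all others for Vtn, and for Atp13a5 the lowest of them (98.2 CPM) was just under the highest of replicate 4. The ranges of replicates 1 and 4 overlapped for both genes. For the other 4 genes, replicate 5 overlapped another replicate number: Rgs5 ranged from 784 to 1041 CPM in replicate 1, from 977 to 1163 CPM in replicate 4 and from 1015 to 1268 CPM in replicate 5, and Pdgfrb from 7.03 to 52.7, from 33.3 to 55.03 and from 30.8 to 130 CPM. Notch3 in replicate 5 (38.5 to 84.0 CPM) overlapped replicate 1 (4.89 to 46.1 CPM), and Higd1b in replicate 5 (10.5 to 49.1 CPM) overlapped both.

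The other genes of these pathways did not pass either. Over all comparisons and fits, 0 of 191 tests rose and 0 fell for 12 genes of PDGF signalling, 0 and 0 of 214 for 16 of Notch signalling, 0 and 0 of 277 for 18 genes of the contractile apparatus and its control, and 0 and 0 of 78 for 7 vascular potassium channels and Rgs proteins. Unadjusted edgeR p-values under 0.05 numbered 4 of 191, 7 of 214, 4 of 277 and 3 of 78 in these lists, beside 4029 of 195976 tests over all genes (2.06%). In Pericytes, for OTV:Malat1 against ATV:BACE1, the median log2 difference was 0.01 for PDGF signalling (10 genes tested), 0.13 for Notch signalling (12), 0.03 for the contractile list (13) and 0.21 for the channels and Rgs proteins (4), beside 0.01 over all genes. Among markers of other cell types, 9 of 106 astrocyte, 9 of 113 oligodendrocyte and 9 of 52 choroid plexus tests had an unadjusted edgeR p under 0.05. The counts were 6 of 99 for neuron, 4 of 259 for endothelial, 0 of 137 for fibroblast and 0 of 50 for microglia and macrophage markers. Over all genes the share was 2.06%, and 0 of the marker tests passed. The 5 oligodendrocyte markers tested in Pericytes had a median of -0.74 for OTV:Malat1 against ATV:BACE1, and their part in the values of the members was not tested.

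The split by pericyte and endothelial genes allowed Malat1, the target of the oligonucleotides, to be read in nuclei with only 1 kind of vascular RNA. As first defined over all 4 classes with at least 20 nuclei per library, Malat1 was 0.38 lower on the log2 scale in nuclei with pericyte genes only (OTV:Malat1 against ATV:BACE1, SE 0.206, edgeR adjusted p = 0.896, 2 libraries against 2). The libraries were replicates 1 and 5 of ATV:BACE1 and replicates 1 and 4 of OTV:Malat1, so batches were not matched, and the fit had no block. In these libraries Malat1 took 9.47% ± 0.424 of UMIs with ATV:BACE1 and 7.67% ± 0.160 with OTV:Malat1 (SD, n = 2 each). It was 0.79 lower in nuclei with endothelial genes only (SE 0.190, adjusted p = 0.546, 3 against 3), at 6.66% ± 0.182 against 4.07% ± 0.807 (SD, n = 3 each). Neither passed, and their difference was 0.32 (SE 0.306, adjusted p = 1.00). Exact two-sided permutation tests gave 0.333, 0.100 and 0.333, each the smallest p these numbers of libraries allow. Calls over all genes were 0% in each of these 3 fits. The set with endothelial genes passed in edgeR when at least 3 different genes were asked for (-1.34, adjusted p = 0.000759) and when Rgs5 was left out of the pericyte genes (-1.23, adjusted p = 3.74e-06). With Rgs5 left out, the set with pericyte genes was at -0.42 (adjusted p = 0.870) and the difference, a fit added after seeing the data, at 0.85 (SE 0.334, adjusted p = 1.00). Leptomeningeal cells made up 45.9% of the UMIs of the first set and 36.7% of those of the second. In the leptomeningeal nuclei of the first set, Malat1 took 8.81% of UMIs with ATV:BACE1 (26 nuclei) and 5.02% with OTV:Malat1 (21 nuclei). In those of the second set it took 8.57% and 8.37%, against 5.85% and 2.13% in its nuclei named Vascular endothelium.

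The values with the leptomeningeal class left out and at least 10 nuclei per library are given as a description with no test, since that class was left out after its Malat1 values were seen. In nuclei with pericyte genes only, Malat1 took 10.9%, 10.2% and 9.25% of the UMIs of replicates 1, 4 and 5 with ATV:BACE1, and 10.1%, 8.78% and 7.46% with OTV:Malat1. The 2 groups overlapped, and the treated library was the lower one in 3 of 3 replicate numbers, by log2 differences of -0.11, -0.22 and -0.31. In nuclei with endothelial genes only, Malat1 was 5.74%, 5.64% and 6.12% in ATV:BACE1 and 2.58%, 1.86% and 1.63% in OTV:Malat1. Here every OTV:Malat1 library was below every control library, and the 3 replicate numbers gave -1.15, -1.60 and -1.91. Libraries of nonTV:Malat1 (4.81% to 4.94%) and Malat1 ASO (3.89% to 4.09%) were also below the control ones. For pericyte genes only, the means of nonTV:Malat1 and Malat1 ASO were 101% and 105% of the control mean. The minimum of 10 nuclei alone, with the leptomeningeal class kept, gave fitted differences of -0.41 for pericyte genes and -0.79 for endothelial genes, and 0.34 for the gap between them (adjusted p = 1.00). With that class kept, the pericyte-gene libraries did not overlap: replicates 1, 4 and 5 had 9.77%, 9.70% and 9.17% with ATV:BACE1. With OTV:Malat1 they had 7.56%, 7.79% and 6.68%. The overlap in nuclei with pericyte genes only thus holds just for the set without leptomeningeal nuclei.

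With the class left out, nuclei that held both kinds of gene lay between the other 2 sets under OTV:Malat1 and under ATV:BACE1, at 7.45%, 7.46% and 7.91% in ATV:BACE1 and 4.28%, 3.38% and 4.57% in OTV:Malat1, a treated mean of 53.6% of the control mean. The sets with pericyte genes only and endothelial genes only were at 86.6% and 34.7% of theirs. Control levels were not equal to begin with: Malat1 was 10.1% ± 0.835 of UMIs in nuclei with pericyte genes only and 5.83% ± 0.253 in nuclei with endothelial genes only (SD, n = 3 each).

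**Figure D4:**
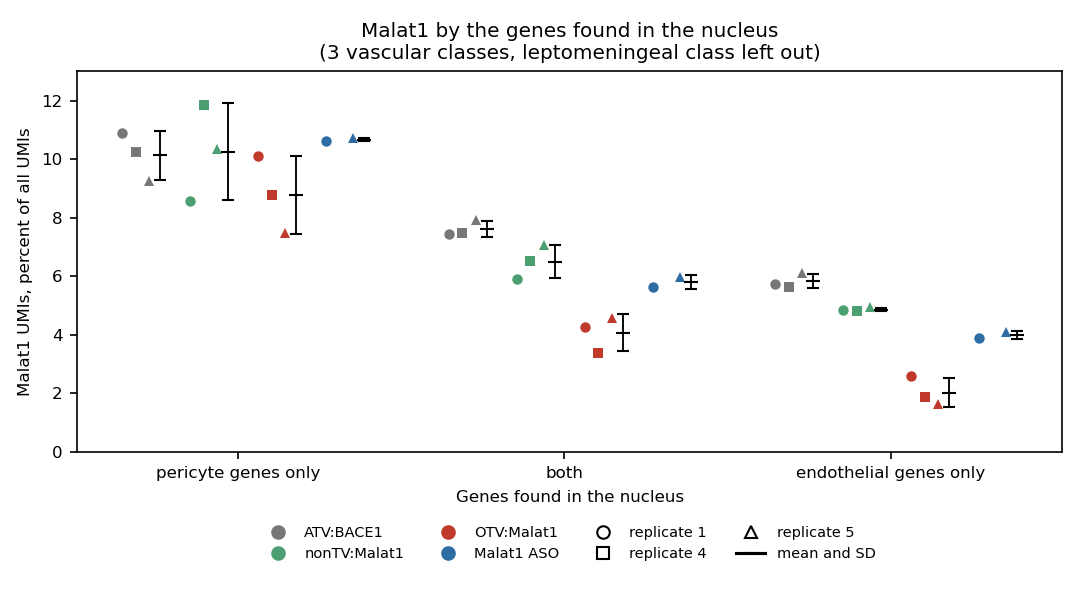
Malat1 in percent of all UMIs for nuclei with pericyte genes only, both kinds, or endothelial genes only, in the 3 vascular classes, the leptomeningeal class having been left out after its values were seen, with 1 point per library, shaped by replicate number, and the mean with SD beside each group. OTV:Malat1 lies below ATV:BACE1 without overlap for endothelial genes only (1.63% to 2.58% against 5.64% to 6.12%) and overlaps it for pericyte genes only (7.46% to 10.1% against 9.25% to 10.9%). With the leptomeningeal class kept (not shown), the libraries for pericyte genes only do not overlap (6.68% to 7.79% against 9.17% to 9.77%).

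Within the class named Pericytes the same split gave different Malat1 levels. Its nuclei with pericyte genes only had 10.2% Malat1 in ATV:BACE1 (17 nuclei) and 8.99% in OTV:Malat1 (25 nuclei), summed over libraries. Its nuclei with both kinds had 7.62% (234 nuclei) and 3.94% (186 nuclei). These pooled sums were not tested. Over all groups, the class's nuclei with pericyte genes only had a median of 663.5 UMIs and a median score of 0.438. Its nuclei with both kinds had medians of 2238 UMIs and 0.963. The part of depth and of the score in these Malat1 levels was not tested. For the class as a whole the log2 difference between OTV:Malat1 and ATV:BACE1 was -0.81 (SE 0.155, edgeR adjusted p = 0.0897). In the fits of other classes, Vascular endothelium was at -1.84 (SE 0.179, edgeR adjusted p = 2.83e-07), which passed. Leptomeningeal cells were at -0.33 (SE 0.114, edgeR adjusted p = 0.999), which did not.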

How the data were processed

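Nuclear RNA was counted in 110304 nuclei of 11 libraries. The deposited matrix holds UMI counts with no normalization, per the file headers and as checked on the values: column sums equalled the deposited total of each nucleus in 110304 nuclei. The deposited metadata give, per the file headers, a predicted class and its score as a fraction, a cluster, a doublet call and a batch. The mitochondrial share of each nucleus was deposited in percent (highest 2.39). Cell Ranger 5.0.0, Seurat 4 and mm10 are named in the submitters' processing notes, without roles. The lowest nucleus total was 499 UMIs and the highest gene number 5000. The control dose of 57 mg/kg is the label's, and the series design can be read as 60 mg/kg.

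Members, gene lists and tests were chosen with earlier results of these data known. Counts were summed per library and class (at least 20 nuclei) and tested with edgeR 4.0.16 in R 4.3.3 (quasi-likelihood, TMM, filterByExpr, all 4 groups in each fit, no block). DESeq2 1.42.0 and the other settings were alternatives. Sets without the leptomeningeal class were added after seeing the data, and their values are descriptions. Levels were computed in Python 3.11.15 and permutation tests in scipy 1.17.1. The edgeR fits, except that of Vascular smooth muscle, were run on simulated counts that held no shared batch, and no outcome is given here. Named genes were the 9 members, Malat1, members of the marker and pathway lists, and the 3 genes most correlated with each member.

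The replicate numbers pair the libraries, since each is 1 deposited batch: libraries with the same number had correlated deviations (r 0.344 to 0.710, 15 pairs), those with different numbers r from -0.605 to 0.339 (30 pairs). Depth was 33235994 to 43972886 UMIs per library, and limits from 3 counts cover counting error only. The 95% intervals come from the edgeR SE. In fits without a block, that SE and the p-values carry the spread between mice together with that between batches. For Malat1, only fits without the block are given here.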

Additional observations from a re-analysis of the deposited data

Results flagged for a closer look

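Pairs of classes were compared for a member moving 1 way in all 3 replicate numbers of one class and the other way in all 3 of another. This was found in 0 of 33 pairs. The pairs were of Pericytes, Vascular endothelium and Leptomeningeal cells, for Pdgfrb, Vtn, Rgs5, Atp13a5 and Notch3. Vascular smooth muscle, Higd1b, the contractile genes and Malat1 ASO were not covered.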

How the results depend on the processing

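Member calls stayed at 0 in all 5 comparisons under DESeq2, total counts without TMM, the replicate block, without called doublets, with scores of at least 0.5 and with at least 10 nuclei. With no filter on low counts they were 1 for OTV:Malat1 against Malat1 ASO and 0 in the other 4. The share of all genes called in that fit is not given here. Leaving out each library gave 0 calls in all 5 comparisons, except without OTV:Malat1 replicate 1. The fit of Vascular smooth muscle then had 1 library left in that group, so its calls are not counted. The cause of its larger differences was not tested. Since the numbers mark a shared batch, the replicate block was run as well, and it changed no call.

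Malat1 in nuclei with pericyte genes ranged from -0.40 to -0.35 when each library was left out, in nuclei with endothelial genes from -0.90 to -0.65, and their difference from 0.24 to 0.35. In nuclei with endothelial genes it passed with at least 3 different genes (-1.34, adjusted p = 0.000759) and with Rgs5 left out of the pericyte genes (-1.23, adjusted p = 3.74e-06). With the leptomeningeal class left out and at least 10 nuclei, a setting chosen after the values were seen and given no test, it was -1.58 and the difference 1.49. The difference did not pass with Rgs5 left out (0.85, added after seeing the data) or with at least 10 nuclei alone (0.34). The cause of these shifts was not tested. With at least 3 different genes too few libraries were left for the pericyte set and the difference.

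The summed pericyte genes in Pericytes were 6293 CPM, and 6941 CPM as a mean of the share in each nucleus. Shares of nuclei with both kinds of gene moved with the thinning and with the nuclei kept. Thinning to 1000 UMIs kept only nuclei of at least that depth. These were 742 of 930 Pericytes, 525 of 1106 in Vascular endothelium and 1165 of 1861 Leptomeningeal cells. In these deeper nuclei the shares were 96.9%, 67.3% and 10.8%, in that order. In all nuclei, not thinned, they were 89.2%, 59.5% and 17.3%, and 44.4% in Vascular smooth muscle. Low depth limits the class named Vascular smooth muscle most, with a median of 821 UMIs per nucleus.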
